A study of Mus musculus with 24 samples.

Results

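Expression of 10 germline genes was followed in mouse embryonic stem cells (mESCs) that were differentiated towards neuromesodermal progenitors (NMPs), the cells that give rise to spinal cord and trunk mesoderm. The genes were named one by one as germline genes commonly held to be silenced by DNA methylation in somatic cells, and the list was proposed with earlier results of these data known. All 10 were found among the 35591 genes of the count table. They were Dazl, Ddx4, Mael, Asz1, Stk31, Sycp1, Sycp3, Hormad1, Tex101 and Slc25a31.

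In the body, genes of this kind are active in germ cells and kept off elsewhere. Their promoters are rich in CpG dinucleotides, which acquire DNA methylation around implantation. In stem cells, a variant Polycomb complex with the DNA-binding subunits MGA, MAX and E2F6 also represses many germline genes. Culture with a pair of kinase inhibitors and LIF (2i), in which these lines were kept before the experiment, is known to lower DNA methylation in mESCs. DNA methylation was not measured in the files used here, so silencing by it is the name under which the genes were listed and not something these data test.

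All 6 lines were male and were derived from Castaneus females mated with a C57BL/6 male with a deleted Smchd1 allele, a floxed one and the MMTV-Cre transgene. The 3 wild-type lines (wt, Smchd1[fl/+]) therefore carried the floxed allele and the 3 heterozygous lines (het, Smchd1[del/+]) the deleted one, and whether a line carried the transgene was not stated. Each line was sampled at day 0 (labelled DME LIF), day 2 (serum-free medium with bFGF), day 2.5 (with the Wnt activator CHIR from day 2) and day 3, giving 8 groups of 3 lines. Before day 0 the medium was changed stepwise from 2i towards serum with LIF, through mixtures of both. Replicates are lines, each measured 4 times. The 24 libraries held 7.10 to 20.8 M (mega) counts. Smchd1, which encodes a chromatin protein with a role in gene silencing, ranged over 131 to 149 CPM (counts scaled by library size) among the wt lines at day 0 and 89.4 to 101 CPM among the het lines, was lower in the het lines without overlap on each of the 4 days, and its log2 difference (het minus wt, ± SE) was -0.61 ± 0.08 at day 0 (adjusted p = 0.1) and -0.75 ± 0.09 at day 2 (adjusted p = 0.00824). Wt line 1 stood apart on chromosome 8, where its median log2 ratio to the other lines was 0.22, against -0.07 to 0.05 for all other lines and chromosomes, and its day 0 library had the fewest detected genes (16821, against up to 19915). The germline genes lie on other chromosomes. The day 2 call of Smchd1 was lost when any one het line was left out (adjusted p = 0.0578 to 0.074, log2 difference -0.77 to -0.72). Its log2 difference was -0.60 ± 0.11 at day 2.5 (adjusted p = 0.907) and -0.88 ± 0.10 at day 3 (adjusted p = 0.0307). The day 3 call was lost at least without wt line 2 or het line 3, in fits that called 0 genes.

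The promoters were examined first. Genes of this kind are known for CpG-rich promoters and for repression by the complex with MGA, MAX and E2F6. The shares below are therefore not independent of how the genes were chosen. RefSeq windows of the 250 bases before a start (build GRCm38.p6) were found for all 10 genes, in 12 windows, because Hormad1 and Stk31 had 2 starts each, those of Hormad1 with nearly the same bases. CpG dinucleotides numbered 12 (Sycp3) to 31 (Ddx4) per window with a median of 18.5, against a median of 10 over 21263 windows of protein-coding genes and 6 over all 32851 windows. The ratio of observed to expected CpG was over 0.6 in 12 of the 12 windows, against 44.7% of windows of protein-coding genes and 34.0% of all windows. The E-box CACGTG, which reads the same on both strands and is bound by MAX with its partners, was present in 9 of the 12 windows and 7 of the 10 genes, against 6.02% of all windows and 6.63% of those of protein-coding genes. The E2F-type motif GCGGGAA, searched on both strands, was present in 4 windows of 3 genes, Sycp3, Hormad1 and Ddx4, against 3.82% of all windows and 4.96% of those of protein-coding genes. These 3 genes held both motifs, which do not overlap each other, whereas 0.338% of all windows and 0.433% of those of protein-coding genes held both. A match describes letters and is not evidence of binding.

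The following 6 windows are shown because their genes carry most of the time course described below. Each runs 5′ to 3′ on the strand of its gene and ends at the base before the RefSeq start, and capitals mark the E-box and the E2F-type motif.
Sycp3, chr10:88459337-88459586, plus strand: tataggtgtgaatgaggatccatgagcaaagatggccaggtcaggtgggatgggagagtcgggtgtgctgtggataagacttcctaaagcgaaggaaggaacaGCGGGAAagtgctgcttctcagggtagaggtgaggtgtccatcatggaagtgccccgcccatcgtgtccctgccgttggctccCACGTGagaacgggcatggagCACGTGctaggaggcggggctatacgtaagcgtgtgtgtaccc
Hormad1, chr3:95559427-95559676, plus strand: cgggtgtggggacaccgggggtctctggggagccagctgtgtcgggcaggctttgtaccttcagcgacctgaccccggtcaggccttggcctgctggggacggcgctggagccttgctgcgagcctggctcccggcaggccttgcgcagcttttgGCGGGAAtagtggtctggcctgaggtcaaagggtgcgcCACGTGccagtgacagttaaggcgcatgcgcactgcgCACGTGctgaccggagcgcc
Ddx4, chr13:112652311-112652560, minus strand: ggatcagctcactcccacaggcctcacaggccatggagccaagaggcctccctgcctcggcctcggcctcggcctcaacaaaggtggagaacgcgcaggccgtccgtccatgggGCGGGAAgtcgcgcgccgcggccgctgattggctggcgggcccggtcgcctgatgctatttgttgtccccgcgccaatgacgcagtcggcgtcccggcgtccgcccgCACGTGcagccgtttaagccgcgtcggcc
Mael, chr1:166238745-166238994, minus strand: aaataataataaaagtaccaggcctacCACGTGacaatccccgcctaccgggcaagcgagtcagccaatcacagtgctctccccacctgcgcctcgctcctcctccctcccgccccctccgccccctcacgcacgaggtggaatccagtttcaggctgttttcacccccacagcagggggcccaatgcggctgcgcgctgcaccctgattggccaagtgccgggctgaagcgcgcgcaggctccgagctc
Sycp1, chr3:102936101-102936350, minus strand: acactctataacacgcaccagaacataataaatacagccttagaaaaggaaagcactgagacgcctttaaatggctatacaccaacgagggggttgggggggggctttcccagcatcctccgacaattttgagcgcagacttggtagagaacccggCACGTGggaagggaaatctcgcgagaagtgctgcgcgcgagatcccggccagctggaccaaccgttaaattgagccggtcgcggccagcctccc
Dazl, chr17:50293621-50293870, minus strand: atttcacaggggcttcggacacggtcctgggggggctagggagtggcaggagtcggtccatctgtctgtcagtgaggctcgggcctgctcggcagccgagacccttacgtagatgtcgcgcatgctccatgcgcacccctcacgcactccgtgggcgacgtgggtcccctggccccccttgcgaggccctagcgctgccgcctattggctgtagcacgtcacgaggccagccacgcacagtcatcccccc

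Sycp3 and Hormad1 each had a pair of E-boxes close to the start with the E2F-type motif further upstream. With the base before the start as position -1, the E-boxes of Sycp3 began at -64 and -43, and those of this Hormad1 window at -57 and -20. The E2F-type motifs of these genes began at -147 and -95. The single E-box of Ddx4 began at -29, that of Sycp1 at -94 and that of Mael at -223. Dazl, shown for contrast, held neither motif, and the same was true of Tex101 and Asz1.

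**Figure D1:**
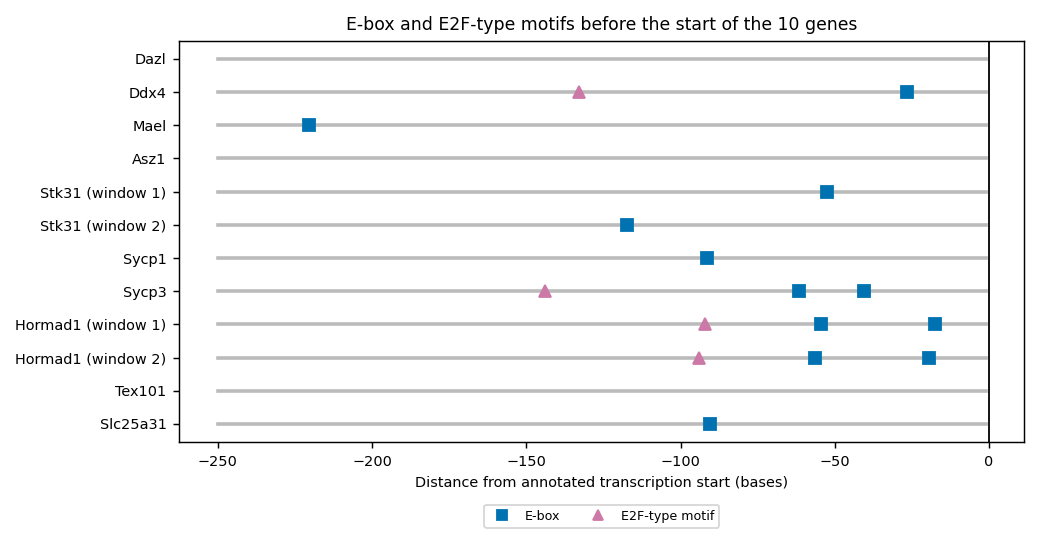
Position of the E-box (squares) and the E2F-type motif (triangles) in the 250 bases before each RefSeq start of the 10 genes, with distance from the start in bases on the x axis and 1 row per window. Sycp3 and Hormad1 carry 2 E-boxes and 1 E2F-type motif, and Dazl, Asz1 and Tex101 carry neither.

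Most of the 10 genes had reads in all of these cultures. Of the 10, 8 had over 3 counts in all 24 libraries, and the exceptions were Tex101 (0 to 40 counts) and Asz1 (3 to 45 counts). Levels between genes were compared per kilobase of exon, as CPM (read counts scaled to a common library total with TMM factors) per kb. At day 0 in wt, Hormad1 was at the top with 70.7 ± 12.7 CPM per kb, followed by Ddx4 with 17.7 ± 0.664 (SD, n = 3). Next came Stk31 (8.89 ± 0.569), Sycp1 (7.97 ± 3.32) and Sycp3 (7.35 ± 0.343), then Dazl (5.09 ± 0.760) and Mael (4.95 ± 2.58). Slc25a31 (2.15 ± 0.279), Tex101 (1.34 ± 0.369) and Asz1 (0.623 ± 0.191) had the lowest levels. The ranges of the 3 lines overlapped between the neighbours Stk31 and Sycp1, Sycp1 and Sycp3, Dazl and Mael, and Mael and Slc25a31, so their order was not resolved. Over all 6 lines at day 0, Hormad1 lay above 95.1% of 15106 tested genes of known exon length, Ddx4 above 77.9% and Dazl above 53.2%, whereas Tex101 lay above 23.7% and Asz1 above 11.2%. On all its counts Sycp3 led at day 2 in both genotypes, with 71.8 ± 18.9 CPM per kb in wt, overlapping Hormad1 at 53.5 ± 7.39, and with 103 ± 10.7 in het, apart from Hormad1 at 63.8 ± 7.90. Exons of Sycp3 overlap those of Chpt1, so part of its level may be reads of that gene. All Chpt1 counts, those outside the shared exons included, were then removed to give a lower bound for Sycp3. At day 2 this left 14.9 to 34.0 CPM per kb in wt and 32.9 to 44.4 in het. Hormad1 lay above, at 47.0 to 61.5 and 58.5 to 72.9, so the order of these genes at day 2 was not resolved.

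**Figure D2:**
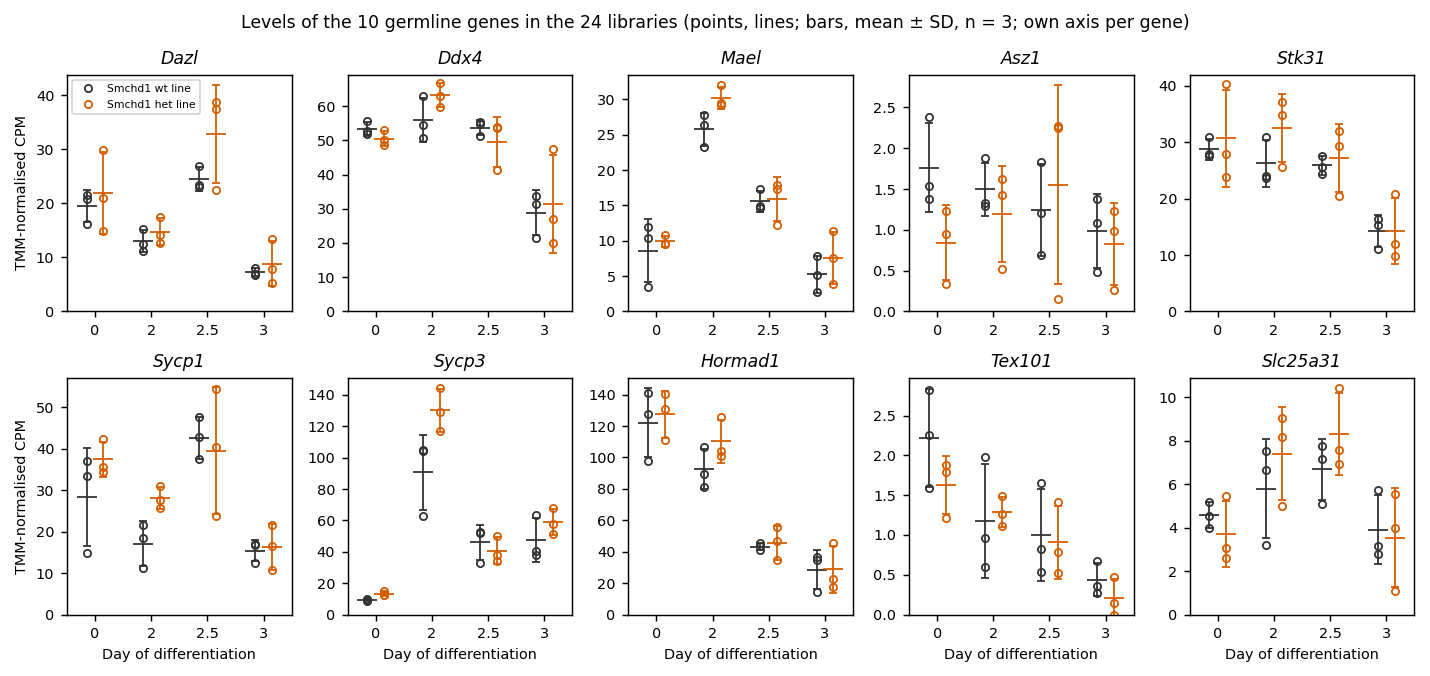
TMM-scaled CPM (y axis, a separate axis for each gene) of the 10 germline genes by day (x axis) in wt (dark grey) and het (orange) lines, where points are lines and bars the mean ± SD of 3 lines. Sycp3 lies at 8.82 to 14.9 CPM at day 0 and at 63.1 to 144 CPM at day 2, and Hormad1 goes from 98.0 to 141 CPM at day 0 to 14.5 to 45.8 CPM at day 3.

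Successive days were compared within each genotype to ask how the genes behaved as the cells left pluripotency. Calls are edgeR quasi-likelihood tests over all genes with a Benjamini-Hochberg adjusted p below 0.05, and only called genes are said to have risen or fallen. From day 0 to day 2, 4 of the 10 were called in wt, with Mael and Sycp3 higher and Dazl and Hormad1 lower, where 44.3% of all tested genes were called (22.4% higher and 21.9% lower). In het 6 were called, with Ddx4, Mael, Sycp3 and Slc25a31 higher and Dazl and Sycp1 lower, where 56.1% of all tested genes were called (28% higher and 28.1% lower). From day 2 to day 2.5, 5 were called in wt, with Dazl and Sycp1 higher and Mael, Sycp3 and Hormad1 lower, where 29.1% of all tested genes were called (14.6% higher and 14.5% lower). In het 5 were called, with Dazl higher and Ddx4, Mael, Sycp3 and Hormad1 lower, where 44.7% of all tested genes were called (21.8% higher and 22.9% lower). From day 2.5 to day 3, 5 were called in wt, namely Dazl, Ddx4, Mael, Stk31 and Sycp1, all lower, where 19.1% of all tested genes were called (8.99% higher and 10.1% lower). In het 6 were called, with Sycp3 higher and Dazl, Mael, Stk31, Sycp1 and Slc25a31 lower, where 29.8% of all tested genes were called (13.8% higher and 16% lower). Over the whole course from day 0 to day 3, 7 were called in wt, with Sycp3 higher and Dazl, Ddx4, Stk31, Sycp1, Hormad1 and Tex101 lower, where 53.6% of all tested genes were called (27% higher and 26.6% lower). The same 7 genes were called in the same directions in het, where 64.3% of all tested genes were called (32.7% higher and 31.6% lower). For the 10 genes the median log2 fold change over the whole course was -0.88 in wt and -0.89 in het, beside 0.03 and 0.02 for all genes.

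In the last step, 5 of the 10 genes were called lower in each genotype. Values of Dazl, Ddx4, Mael, Sycp1, Hormad1 and Stk31 were lower at day 3 than at day 2.5 in 6 of 6 lines, though Hormad1 in both genotypes and Ddx4 in het were not called, and the 10 genes had a median log2 fold change of -0.87 in wt and -1.02 in het, beside 0.00294 and -0.02 for all genes. From day 0 to day 2, Sycp3 and Mael were higher in 6 of 6 lines while Dazl and Sycp1 were lower in 6 of 6. Neighbouring steps share the libraries of the day between them. The libraries are of whole cultures, in which fewer expressing cells and less RNA per cell cannot be told apart.

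**Figure D3:**
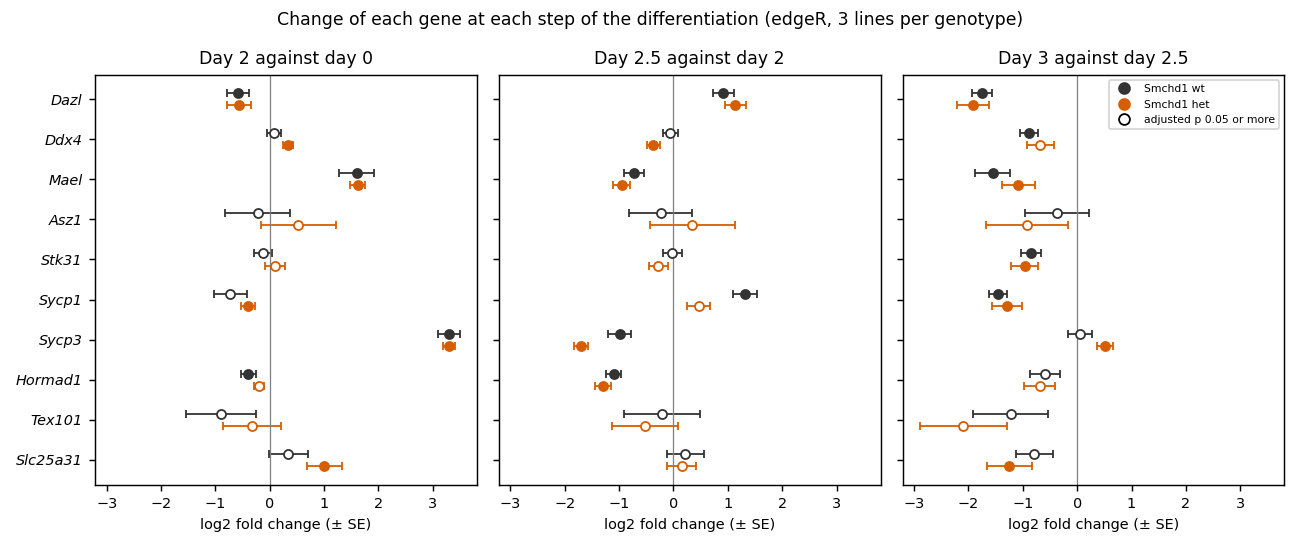
log2 fold change (x axis, ± SE from edgeR) of each of the 10 germline genes (rows) at the 3 successive steps of differentiation in wt (dark grey) and het (orange), with filled points for an adjusted p under 0.05 and open points for others. Sycp3 and Mael lie right of 0 at the first step, Dazl changes side at each step, and of the filled points of the last step only that of Sycp3 lies right of 0.

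Dazl and Ddx4 encode RNA-binding proteins of germ cells. DAZL controls translation of germ cell mRNAs, and DDX4, the mouse Vasa protein, is an RNA helicase of germ granules. Dazl (ENSMUSG00000010592, chromosome 17, 50279395 to 50293636 in GRCm38, minus strand) had, for lines 1 to 3 in turn, 16.1, 21.5 and 20.7 CPM in wt and 14.9, 29.9 and 21.05 CPM in het at day 0. It had 15.3, 12.4 and 11.2 CPM in wt and 12.6, 17.5 and 14.1 CPM in het at day 2, and 26.9, 23.3 and 23.1 CPM in wt and 22.4, 38.8 and 37.5 CPM in het at day 2.5. At day 3 it had 6.66, 8.06 and 6.95 CPM in wt and 5.22, 13.4 and 7.78 CPM in het. Dazl thus went down, up and down again in each of the 6 lines, and its values at day 2.5 all lay above those at day 2 and at day 3. The log2 fold change (± SE) to day 2 was -0.58 ± 0.20 in wt (adjusted p = 0.0318) and -0.56 ± 0.22 in het (adjusted p = 0.036). The rise from day 2 to day 2.5 was 0.91 ± 0.19 in wt (adjusted p = 0.00363) and 1.14 ± 0.20 in het (adjusted p = 0.000352). The fall from day 2.5 to day 3 was -1.75 ± 0.18 in wt (adjusted p = 0.000468) and -1.92 ± 0.29 in het (adjusted p = 0.000752). The first fall was not called without wt line 2 (adjusted p = 0.208) or wt line 3 (adjusted p = 0.251), nor without het line 2 (adjusted p = 0.129) or het line 3 (adjusted p = 0.104).

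Ddx4 (ENSMUSG00000021758, chromosome 13, 112598333 to 112652475 in GRCm38, minus strand) had 55.7, 52.7 and 52.0 CPM in wt and 49.99, 52.9 and 48.7 CPM in het at day 0, and 63.1, 50.6 and 54.4 CPM in wt and 59.8, 66.8 and 63.0 CPM in het at day 2. It had 55.3, 51.2 and 54.8 CPM in wt and 41.2, 53.6 and 54.1 CPM in het at day 2.5, and 33.7, 21.5 and 31.4 CPM in wt and 20.1, 47.6 and 26.9 CPM in het at day 3. Each line was lower at day 3 than at day 0 or day 2.5, and among the day 3 values het line 2 stood highest. From day 0 to day 3 the log2 fold change was -0.88 ± 0.16 in wt (adjusted p = 0.000492) and -0.67 ± 0.22 in het (adjusted p = 0.0184). In het that call was lost without line 1 (adjusted p = 0.072) or line 3 (adjusted p = 0.16) and with DESeq2 (adjusted p = 0.103). From day 2.5 to day 3 it was -0.89 ± 0.17 in wt (adjusted p = 0.00571) and -0.68 ± 0.24 in het (adjusted p = 0.0538). The het value was called with the line as a block (-0.75, adjusted p = 0.0046) or without het line 2 (adjusted p = 0.00415), and the wt call was lost without wt line 2 (adjusted p = 0.0829). In het, Ddx4 also rose from day 0 to day 2 (0.33 ± 0.09, adjusted p = 0.00604) and fell from day 2 to day 2.5 (-0.37 ± 0.12, adjusted p = 0.0176). That fall was not called without het line 1 (adjusted p = 0.142) or het line 2 (adjusted p = 0.0612).

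Mael, Asz1 and Stk31 belong to germ granules and transposon control. MAEL and ASZ1 take part in the piRNA pathway, in which small RNAs guide the silencing of transposons, and STK31 is a Tudor domain protein with a kinase-like domain. Mael (ENSMUSG00000040629, chromosome 1, 166201201 to 166238747 in GRCm38, minus strand) had 3.503, 11.9 and 10.3 CPM in wt and 9.49, 9.47 and 10.8 CPM in het at day 0. It had 23.2, 27.7 and 26.4 CPM in wt and 29.2, 32.1 and 29.5 CPM in het at day 2, and 14.6, 14.9 and 17.3 CPM in wt and 12.3, 17.9 and 17.4 CPM in het at day 2.5. At day 3 it had 7.90, 2.71 and 5.18 CPM in wt and 3.94, 11.4 and 7.49 CPM in het. The values at day 2 lay above those of all other days, and wt line 1 was the lowest at day 0. The log2 fold change to day 2 was 1.60 ± 0.32 in wt (adjusted p = 0.00103) and 1.62 ± 0.14 in het (adjusted p = 1.3e-07). Mael fell again from day 2 to day 2.5, with a log2 fold change of -0.73 in wt and -0.95 in het (adjusted p = 0.00851 and 0.000216), and from day 2.5 to day 3, with a log2 fold change of -1.56 in wt and -1.08 in het (adjusted p = 0.00919 and 0.0176). Without wt line 2 neither fall was called in wt (adjusted p = 0.102 and 0.0909), and the later one was not called without wt line 3 (adjusted p = 0.0736) or, in het, without het line 3 (adjusted p = 0.154). Over the whole course Mael was not called, but it was, with lower values at day 3, without wt line 1 in wt (adjusted p = 0.00324) and without het line 2 in het (adjusted p = 0.0178).

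Stk31 (ENSMUSG00000023403, chromosome 6, 49395604 to 49469501 in GRCm38, plus strand) had 27.5, 30.9 and 27.9 CPM in wt and 23.9, 40.4 and 27.9 CPM in het at day 0. At day 2.5 it had 25.7, 27.6 and 24.4 CPM in wt and 20.5, 32.0 and 29.3 CPM in het, and at day 3 16.4, 11.01 and 15.3 CPM in wt and 9.82, 20.8 and 11.9 CPM in het. It was lower at day 3 than at day 2.5 and at day 0 in 6 of 6 lines, and it was called in no earlier step. The last step was -0.85 ± 0.18 in wt (adjusted p = 0.0101) and -0.96 ± 0.25 in het (adjusted p = 0.0129), and from day 0 to day 3 the log2 fold change was -1.01 ± 0.18 in wt (adjusted p = 0.000404) and -1.10 ± 0.25 in het (adjusted p = 0.00172). The call of the last step was lost without wt line 2 (adjusted p = 0.125), wt line 3 (adjusted p = 0.0553) or het line 3 (adjusted p = 0.154). Over the 24 libraries, of which 4 share each line, Stk31 and Ddx4 were the pair of germline genes with the most similar log2 CPM (Pearson r 0.92), and Sycp3 and Tex101 the least similar (r -0.35). Asz1 (ENSMUSG00000010796, chromosome 6, 18050964 to 18109061 in GRCm38, minus strand) had group means of 0.822 to 1.76 CPM and was called in no comparison of days. Its standard errors reached 0.78 on the log2 scale, in het from day 2 to day 2.5, where the lines had 3, 43 and 45 counts at day 2.5. A change of that size was not detectable there.

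Sycp1, Sycp3 and Hormad1 encode parts of the meiotic chromosome. SYCP3 builds the axis of the synaptonemal complex, SYCP1 forms the filaments that join paired axes, and HORMAD1 marks axes that have not yet paired. Sycp3 (ENSMUSG00000020059, chromosome 10, 88459569 to 88473236 in GRCm38, plus strand) had 8.82, 9.38 and 9.67 CPM in wt and 12.6, 12.6 and 14.9 CPM in het at day 0. It had 105, 63.1 and 104 CPM in wt and 129, 144 and 117 CPM in het at day 2, and 33.0, 52.2 and 52.7 CPM in wt and 33.9, 38.2 and 50.3 CPM in het at day 2.5. At day 3 it had 40.5, 38.1 and 63.6 CPM in wt and 51.4, 68.0 and 57.7 CPM in het. The values of each later day lay above those of day 0, and those of day 2 above those of day 2.5. The log2 fold change to day 2 was 3.29 ± 0.20 in wt (adjusted p = 3.04e-08) and 3.30 ± 0.11 in het (adjusted p = 5.81e-12), and from day 0 to day 3 it was 2.36 ± 0.20 in wt (adjusted p = 1.08e-06) and 2.15 ± 0.13 in het (adjusted p = 1.88e-08). From day 2 to day 2.5 Sycp3 fell with a log2 fold change of -0.99 in wt and -1.70 in het (adjusted p = 0.0042 and 2.5e-07), and whether the genotypes differed in this step was not tested. In het it rose from day 2.5 to day 3 (0.51 ± 0.14, adjusted p = 0.0177), which was not called without het line 2 (adjusted p = 0.161). Counts of the overlapping gene Chpt1, which may include Sycp3 reads, moved with those of Sycp3 in both steps, as described next.

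Part of the Sycp3 counts may belong to Chpt1, a gene of phospholipid synthesis on the other strand, whose exons overlap those of Sycp3. Equally, part of the Chpt1 counts may be reads of Sycp3, and the share in either direction was not tested. Of the 75-base stretches of the longest Sycp3 transcript, 53.1% occur in no transcript of another gene on either strand. The library kits were of a stranded or a non-stranded type without a statement for each library, and for the only pair of opposite genes with the same start and end the table gave identical counts in all libraries. Chpt1 had 10.01 to 20.9 CPM at day 0 and 44.3 to 88.1 CPM at day 2, and it rose by 1.98 in wt and 2.10 in het (adjusted p = 1.56e-05 and 5.73e-10) on the log2 scale. From day 2 to day 2.5 Chpt1 fell in 6 of 6 lines, with a log2 fold change of -0.95 in wt and -1.18 in het (adjusted p = 0.00248 and 3.82e-06). From day 2.5 to day 3 its values were higher in 6 of 6 lines, with 0.43 ± 0.18 in wt (adjusted p = 0.116) and 0.43 ± 0.12 in het (adjusted p = 0.0207). Per kb of exon, Sycp3 had 71.8 CPM in wt and 103 in het at day 2, against 6.84 and 9.54 for Chpt1. The changes in Chpt1 counts may therefore be in part those of Sycp3 reads, which was not tested. Sycp3 had fewer counts than Chpt1 in each library at day 0 (0.449 to 0.881 per Chpt1 count) and more in each library at day 2 (1.42 to 1.73). If each shared read was counted for both genes, Sycp3 less all Chpt1 counts is a lower bound for its own RNA. At day 2 that remainder was 18.8 to 56.1 CPM, above the full Sycp3 level of 8.82 to 14.9 CPM at day 0. The log2 ratio of mean levels was then 1.86 in wt and 1.93 in het, against 3.29 and 3.28 with all counts. At day 2.5 the remainder was 7.92 to 25.7 CPM in wt and 2.24 to 9.59 CPM in het, lower than at day 2 in all lines but wt line 2, which went from 18.8 to 25.7 CPM. At day 3 the remainder ran from -0.413 to 19.3 CPM, so the higher Sycp3 level of that day could not be told apart from Chpt1 reads.

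**Figure D4:**
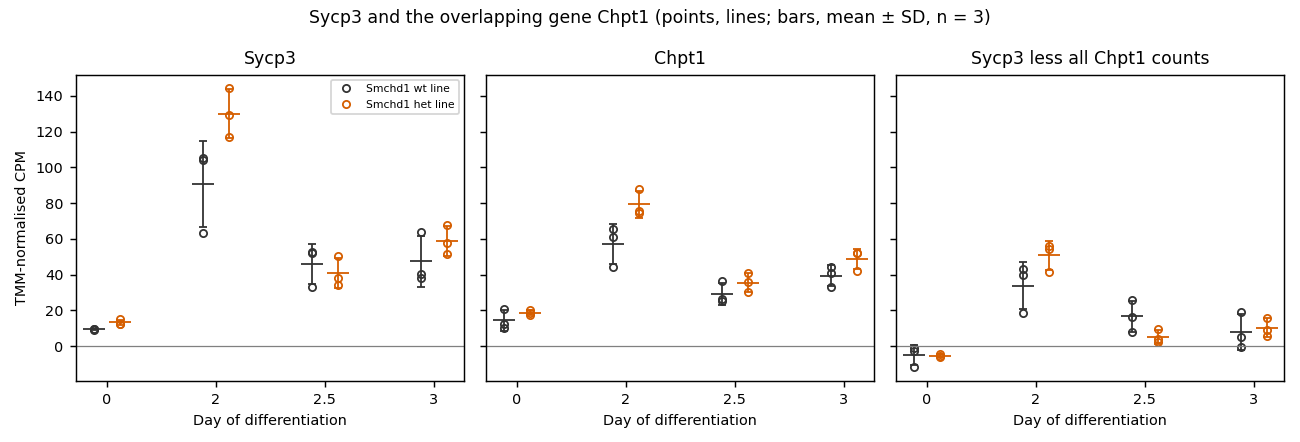
TMM-scaled CPM (y axis) of Sycp3, of the overlapping gene Chpt1 and of Sycp3 less all Chpt1 counts, by day (x axis), in wt (dark grey) and het (orange), where points are lines and bars the mean ± SD of 3 lines. Means of both genes are highest at day 2, and the remainder is 18.8 to 56.1 CPM at day 2 and below 0 in all 6 lines at day 0.

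Sycp1 (ENSMUSG00000027855, chromosome 3, 102818499 to 102936100 in GRCm38, minus strand) had 14.9, 36.9 and 33.3 CPM in wt and 35.7, 34.5 and 42.3 CPM in het at day 0. It had 11.1, 21.6 and 18.5 CPM in wt and 27.5, 31.1 and 25.8 CPM in het at day 2, and 37.4, 47.5 and 42.7 CPM in wt and 23.7, 40.5 and 54.4 CPM in het at day 2.5. At day 3 it had 16.9, 12.4 and 16.8 CPM in wt and 10.7, 21.6 and 16.4 CPM in het. All lines were lower at day 2 than at day 0, 5 of 6 were higher at day 2.5 than at day 2, all were lower at day 3 than at day 2.5, and wt line 1, which stood apart on chromosome 8, was the lowest wt line until day 2.5. The log2 fold change to day 2 was -0.72 ± 0.30 in wt (adjusted p = 0.0628) and -0.40 ± 0.13 in het (adjusted p = 0.0124). The wt value was called with the line as a block (-0.68, adjusted p = 0.00529), with DESeq2 (adjusted p = 0.0358) or without wt line 1 (adjusted p = 0.00351), and the het call was lost without het line 1 (adjusted p = 0.0599) or het line 3 (adjusted p = 0.161). To day 2.5 it was 1.31 ± 0.22 in wt (adjusted p = 0.000942) and 0.46 ± 0.21 in het (adjusted p = 0.0918), and the het value was called without het line 1 (adjusted p = 0.0122). The fall from day 2.5 to day 3 was -1.46 ± 0.17 in wt (adjusted p = 0.000782) and -1.30 ± 0.28 in het (adjusted p = 0.00492), and it was lost without wt line 2 (adjusted p = 0.0649) or het line 3 (adjusted p = 0.0841). Over the whole course Sycp1 fell with a log2 fold change of -0.87 in wt and -1.19 in het (adjusted p = 0.0175 and 0.000143), and the wt call was lost without wt line 2 (adjusted p = 0.233) or wt line 3 (adjusted p = 0.107).

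Hormad1 (ENSMUSG00000028109, chromosome 3, 95559677 to 95587671 in GRCm38, plus strand) had 98.0, 141 and 128 CPM in wt and 111, 140.3 and 131 CPM in het at day 0. It had 106, 81.3 and 89.8 CPM in wt and 104, 126 and 101 CPM in het at day 2, and 43.6, 45.3 and 40.9 CPM in wt and 34.5, 55.5 and 46.6 CPM in het at day 2.5. At day 3 it had 34.6, 14.5 and 36.6 CPM in wt and 17.3, 45.8 and 22.9 CPM in het. The values of day 2.5 lay below all values of days 0 and 2. From day 2 to day 2.5 the log2 fold change was -1.10 ± 0.14 in wt (adjusted p = 0.000125) and -1.30 ± 0.15 in het (adjusted p = 9.93e-06), and from day 0 to day 3 it was -2.09 ± 0.26 in wt (adjusted p = 2.56e-05) and -2.14 ± 0.25 in het (adjusted p = 8.22e-06). The smaller fall to day 2 in wt (-0.40 ± 0.14, adjusted p = 0.0354) was not called without wt line 2 (adjusted p = 0.365) or wt line 3 (adjusted p = 0.211), and in het it was called with the line as a block (adjusted p = 0.0317). The last step, lower in 6 of 6 lines, had an adjusted p of 0.148 in wt and 0.0904 in het. It was called with the line as a block in wt (adjusted p = 0.0212) and in het (adjusted p = 0.00257), and in het also without het line 2 (adjusted p = 0.00496). Of the 75-base stretches of the longest Hormad1 transcript 84.8% are unique, and others are shared with the annotated gene Gm15529. For Sycp1 the share is 98.6%.

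Tex101 encodes a surface glycoprotein of male germ cells, and Slc25a31 the germ cell form of the mitochondrial ADP/ATP carrier. Tex101 (ENSMUSG00000062773, chromosome 7, 24668007 to 24676675 in GRCm38, minus strand) had 2.25, 1.59 and 2.82 CPM in wt and 1.79, 1.21 and 1.88 CPM in het at day 0. At day 3 it had 0.276, 0.361 and 0.670 CPM in wt and 0, 0.471 and 0.148 CPM in het, from 0 to 11 counts per library. Each line was lower at day 3 than at day 0, and the fit gave a log2 fold change of -2.34 in wt and -2.91 in het (adjusted p = 0.00969 and 0.003). For the last step in het the adjusted p was 0.0673, and 0.0306 without het line 2. Neither call over the whole course held without line 3 (adjusted p = 0.0577 in wt and 0.0585 in het). Slc25a31 (ENSMUSG00000069041, chromosome 3, 40708855 to 40726096 in GRCm38, plus strand) had 2.62, 5.47 and 3.05 CPM in het at day 0, and 4.98, 9.06 and 8.16 CPM at day 2. It had 6.93, 10.4 and 7.57 CPM in het at day 2.5, and 1.07, 5.56 and 3.99 CPM at day 3. Het line 2 was the highest het line on each day. In het Slc25a31 rose to day 2 (1.01 ± 0.33, adjusted p = 0.0165) and fell from day 2.5 to day 3 (-1.25 ± 0.41, adjusted p = 0.0402), and without het line 3 neither was called (adjusted p = 0.109 and 0.149). In wt its group means were 3.90 to 6.68 CPM, and it was called in no comparison of days.

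The number of calls rested in part on single lines. For day 2 against day 0, 2 of the 10 genes were called in wt without line 2 or without line 3, and 3 in het without line 3. Of all tested genes the same fits called 36.1%, 26.3% and 49.9%, against 44.3% in wt and 56.1% in het with all lines. For day 3 against day 2.5, 1 was called in wt without line 2 and 3 without line 3, and 2 in het without line 3. Calls were lost among all genes too, of which these fits called 0.186%, 6.35% and 14.9%, against 19.1% in wt and 29.8% in het with all lines. Wt line 2 holds the smallest library, that of day 2.5.

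Other genes of the same pathways were counted beside the 10. From day 0 to day 2, 13 of 22 tested genes of meiosis rose and 1 fell in wt, and 14 of 23 rose and 2 fell in het. Of all tested genes 22.4% and 28% rose in this step. The median log2 fold change of the list was 1.42 in wt and 1.07 in het, beside 0.02 and 0.01 for all genes. Stra8, which drives entry into meiosis, went from 2.14 ± 0.912 to 51.5 ± 8.58 CPM in wt and from 2.51 ± 0.441 to 48.0 ± 6.34 CPM in het (SD, n = 3), a rise of 4.60 in wt and 4.27 in het (adjusted p = 2.22e-08 and 4e-11) on the log2 scale. Meioc, which sustains the meiotic programme, went from 6.94 ± 0.777 to 45.6 ± 13.9 CPM in wt and from 9.35 ± 0.748 to 56.2 ± 6.58 CPM in het. Smc1b, the meiotic cohesin subunit, rose by 1.45 in wt and 1.60 in het (adjusted p = 0.000274 and 7.09e-08). Syce1, a central element protein of the synaptonemal complex, fell instead, with a log2 fold change of -1.48 in wt and -1.37 in het (adjusted p = 4.47e-05 and 1.61e-05). From day 2 to day 2.5, 8 of 22 fell and 0 rose in wt, and 10 of 22 fell and 1 rose in het, where 14.5% of all genes fell and 14.6% rose in wt and 22.9% fell and 21.8% rose in het. Between day 0 and day 3, 7 of 20 rose and 4 fell in wt, and 9 of 22 rose and 6 fell in het, near the shares of all genes (27% and 26.6% in wt, 32.7% and 31.6% in het).

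Genes of the piRNA pathway moved in both directions. By day 2, 5 of 19 rose and 4 fell in wt, and 8 of 19 rose and 4 fell in het. By day 3, 4 of 18 rose and 9 fell in wt, and 5 of 19 rose and 10 fell in het. Of all tested genes, the calls were 22.4% higher and 21.9% lower in wt and 28% higher and 28.1% lower in het by day 2, and 27% higher and 26.6% lower in wt and 32.7% higher and 31.6% lower in het by day 3, so in wt the piRNA genes lay near the shares of all genes by day 2. The median log2 fold change of the list by day 2 was -0.14 in wt and 0.35 in het. Tdrkh, a Tudor domain partner of PIWI proteins, rose to day 2 by 2.44 in wt and 2.59 in het (adjusted p = 1.64e-06 and 2.78e-07), and its exons overlap those of Oaz3 on the other strand. Tex19.1, which restrains transposons, went from 183 ± 22.9 CPM at day 0 to 24.8 ± 0.418 at day 3 in wt and from 169.8 ± 7.54 to 25.3 ± 5.81 in het. Of 13 further germ cell genes tested, 7 fell and 3 rose from day 0 to day 3 in wt, and 8 fell and 2 rose in het. Among them Rpl10l, a retrogene copy of a ribosomal protein gene used in meiosis, fell with a log2 fold change of -3.93 in wt and -3.70 in het (adjusted p = 2.09e-09 and 1.5e-10), whereas Cpeb1, a translational regulator of germ cells, had risen by day 2, by 1.79 in wt and 1.73 in het (adjusted p = 0.000101 and 1.41e-07).

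Markers of primordial germ cells were counted in the same way. By day 2, 5 of 6 tested fell and 1 rose in wt, and 6 of 7 fell and 1 rose in het, where 21.9% and 28.1% of all tested genes fell. Their summed level was 209 to 239.8 CPM at day 0 and 90.2 to 107 CPM at day 2, and Nanos2 of this list was at 0 in all 3 lines of 4 of the 8 groups. Prdm14, a regulator of germ cell specification, went from 10.5 ± 0.881 to 0.956 ± 0.327 CPM in wt and from 10.1 ± 3.62 to 0.820 ± 0.632 CPM in het. Naive pluripotency markers summed to 1147 to 1361 CPM at day 0 and 110.2 to 177 CPM at day 2. Formative epiblast markers summed to 106 to 136 CPM at day 0 and 146 to 197 CPM at day 2. NMP markers summed to 48.7 to 91.8 CPM at day 2 and 730.0 to 1397 CPM at day 2.5. Of all tested genes 22.4% in wt and 28% in het rose by day 2, and 27% and 32.7% by day 3. Markers of extraembryonic endoderm rose in 10 of 13 tested in wt and 10 of 13 in het by day 2, and in 12 and 13 of 13 by day 3. In wt they summed to 2324 to 3882 CPM at day 0, 7536 to 15401 CPM at day 2 and 5227 to 10391 CPM at day 3. In het the sums were 1345 to 1947, 4567 to 6354 and 3994 to 6588 CPM, and Ttr of this list was at 0 in all 6 lines at day 0. Of fibroblast markers, 3 of 5 in wt and 4 of 5 in het rose by day 3, where 27% and 32.7% of all tested genes rose. These markers summed to 25.8 to 59.5 CPM at day 0 and 123 to 227 CPM at day 3. The part of these changes of cell state and of other cell types in the levels of the 10 genes was not tested.

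The enzymes that write and remove DNA methylation were also counted. Of 9 genes, 7 fell and 1 rose from day 0 to day 3 in wt, with the same numbers in het, where 26.6% and 31.6% of all tested genes fell and 27% and 32.7% rose. Dnmt3b, a de novo DNA methyltransferase, had 939 ± 27.2 CPM at day 0, 1142 ± 63.7 at day 2 and 162 ± 21.2 at day 3 in wt. In het it had 967 ± 82.6, 1223 ± 31.8 and 205 ± 33.0 CPM on these days. Its cofactor Dnmt3l, whose exons overlap Aire on the other strand, fell from day 0 to day 3 with a log2 fold change of -3.64 in wt and -3.27 in het (adjusted p = 8.24e-10 and 1.21e-07), and Tet1, which oxidises methylated cytosine, with a log2 fold change of -2.54 in wt and -2.76 in het (adjusted p = 2.14e-09 and 2.39e-10). Dnmt1, the maintenance enzyme, fell with a log2 fold change of -0.50 in wt and -0.50 in het (adjusted p = 0.00036 and 5.32e-05). Of 15 genes of the MGA and E2F6 Polycomb complex and of H3K9 methylation, 10 fell and 3 rose over the same days in each genotype. Max fell with a log2 fold change of -1.05 in wt and -0.99 in het (adjusted p = 1.71e-05 and 1.21e-07), Pcgf6 with a log2 fold change of -0.79 in wt and -0.77 in het (adjusted p = 2.85e-05 and 7.9e-07) and Mga with a log2 fold change of -0.36 in wt and -0.69 in het (adjusted p = 0.00681 and 1.52e-06). E2f6 rose by 0.61 in wt and 0.52 in het (adjusted p = 0.00492 and 0.000279). These are RNA levels of the factors and measure neither methylation nor binding at the 10 promoters.

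Het and wt lines were compared on each day to ask whether loss of the paternal Smchd1 copy altered the germline genes. None of the 10 was called on any day by edgeR, in 39 values tested, since Tex101 did not pass the filter on low counts at day 3. At an unadjusted p under 0.05 there were 4 of the 39, namely Sycp3 at day 0, Sycp1 and Sycp3 at day 2 and Dazl at day 2.5, all higher in het. At the same threshold stood 10.9% of all tested genes at day 0 (4.81% higher in het), 10.2% at day 2 (4.13% higher), 5.27% at day 2.5 (3.37% higher) and 9.13% at day 3 (4.99% higher). After adjustment, 0% of all tested genes were called at day 0, 0.551% at day 2 (0.0519% higher and 0.5% lower in het), 0% at day 2.5 and 0.00638% at day 3. DESeq2 called 0 of the 10 on each day, and of all genes its calls were 0.970% (day 0), 1.84% (day 2), 0.0192% (day 2.5) and 0.856% (day 3). When the counts of a line were summed over its 4 libraries, 0 of 10 were called and 0 had an unadjusted p under 0.05, against 0.00544% and 9.05% of all genes. The interaction of genotype with the change to day 2 or to day 3 was called for 0 of the 10, with 0 at an unadjusted p under 0.05, where 0% of all genes were called and 6.31% (day 2) and 8.79% (day 3) had such a p. To day 2 it was positive for 10 of 10 genes (median 0.25, beside -0.000255 for all genes). To day 3 it was positive for 5 of 10 (median 0.02, beside -0.00886 for all genes).

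Among the 10 genes, Sycp1 and Sycp3 had the lowest adjusted p at day 2. For Sycp1 the het lines had 27.5, 31.1 and 25.8 CPM and the wt lines 11.1, 21.6 and 18.5, a log2 difference of 0.71 ± 0.21 (adjusted p = 0.18). For Sycp3 the het lines had 129, 144 and 117 CPM and the wt lines 105, 63.1 and 104, a log2 difference of 0.51 ± 0.16 (adjusted p = 0.208). In both genes the het lines were all above the wt lines. Without wt line 1, which was lowest for Sycp1, the differences were 0.48 for Sycp1 and 0.62 for Sycp3 (adjusted p = 0.283 and 0.0966). Without a filter beyond 1 count both were called (adjusted p = 0.0109 and 0.000735), in a fit that called 1.77% of 21707 genes. Chpt1, which overlaps Sycp3, had a log2 difference of 0.47 ± 0.14 (adjusted p = 0.188), and Sycp3 less all Chpt1 counts was 18.8 to 43.0 CPM in wt and 41.6 to 56.1 CPM in het, with overlap. At day 0 Sycp3 differed by 0.51 ± 0.17 (adjusted p = 0.369) and Chpt1 by 0.35 ± 0.22 (adjusted p = 0.574). Sycp3 less all Chpt1 counts was -11.5 to -1.19 CPM over the 6 lines, so at day 0 it gave no bound on the Sycp3 difference. At day 2.5 Dazl differed by 0.43 ± 0.19 (adjusted p = 0.907), with the wt lines at 23.1 to 26.9 CPM inside the het range of 22.4 to 38.8 CPM.

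The lines of the genotypes did not overlap for Asz1 (het below) and Sycp3 (het above) at day 0, where this held for 16.7% of all genes (9.38% with het above and 7.28% with het below). At day 2 it held for Mael, Sycp1 and Sycp3, all with het above, against 16% of all genes (8.08% above and 7.91% below). At day 2.5 it held for 0 of the germline genes, against 11.4% (6.15% above and 5.2% below), and at day 3 for 0, against 13.9% (8.29% above and 5.6% below). With the 4 libraries of a line summed it held for 0 of the 10, against 13.8% (7.12% above and 6.66% below). At day 2, 9 of the 10 genes had a positive log2 difference, with a median of 0.24, beside 0.00183 for all genes. The number was 6 of 10 at day 0 (median 0.06), 6 of 10 at day 2.5 (median 0.05) and 6 of 9 at day 3 (median 0.07). Standard errors ran from 0.10 for Ddx4 at day 0 to 0.73 for Asz1 at day 2.5, so small differences of the low genes were not detectable. The cultures also differed in markers of another cell type. At day 0, 12 of 13 tested markers of extraembryonic endoderm had an unadjusted p under 0.05, against 10.9% of all genes, and 0 were called. Their median log2 difference was -0.88. The 16 listed summed to 2324 to 3882 CPM among the wt lines and 1345 to 1947 CPM among the het lines. At day 3 the number with such a p was 10 of 13, against 9.13% of all genes, with a median of -0.67. At day 2.5 it was 2, against 5.27% of all genes. At day 2, of 13 of these markers tested, 11 were called lower in het, against 0.5% of all tested genes. The 16 listed summed to 7536 to 15401 CPM in wt and 4567 to 6354 CPM in het, with Afp at 0 in the 3 het lines. Of the 4 with the lowest adjusted p, Col4a1, Col4a2 and Dab2 were not called without any one het line (adjusted p = 0.0707 to 0.165), nor Dab2 without wt line 3, and Sox7 was not called without het line 1, het line 3 or wt line 3 (adjusted p = 0.056 to 0.123). In a joint fit of all 24 libraries Col4a1, Col4a2 and Dab2 were not called either (adjusted p = 0.111, 0.101 and 0.145). Col4a1 and Col4a2 overlap each other on opposite strands. Fibroblast markers summed to 63.6 to 114 CPM in wt and 46.6 to 52.2 CPM in het at day 2. Of 5 tested, 1 (Pdgfra, also a gene of endoderm) was called lower. Pdgfra was not called without any one het line or wt line 3 (adjusted p = 0.084 to 0.176), or in the joint fit (adjusted p = 0.143). The part of these other cell types in the day 0 and day 2 values of the germline genes was not tested.

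**Figure D5:**
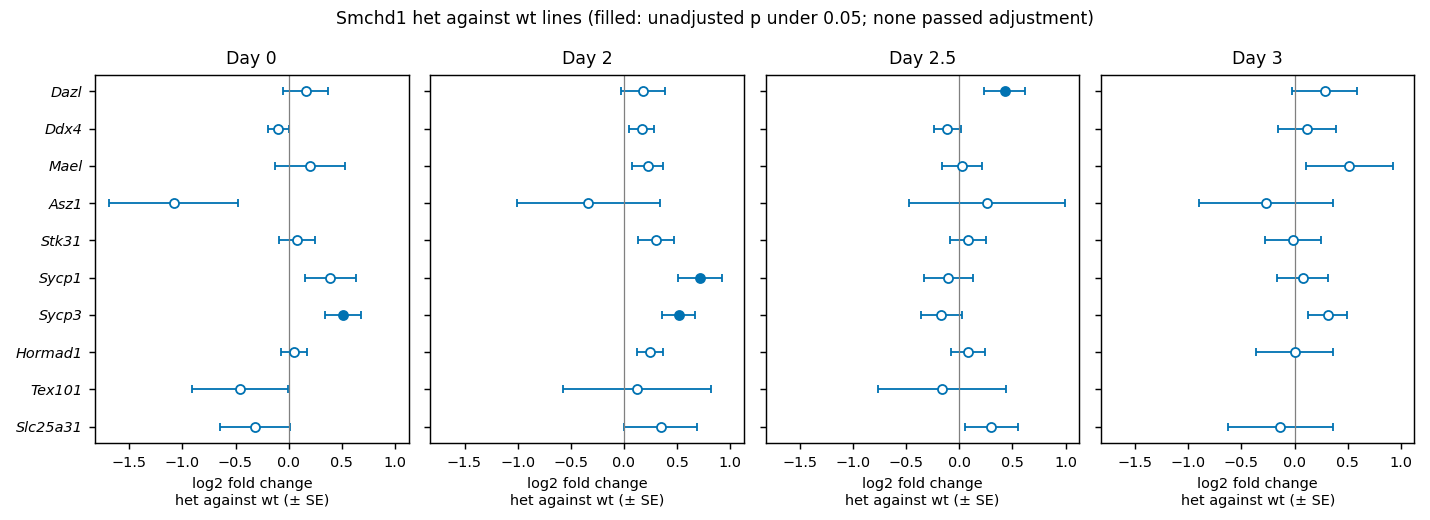
log2 fold change of het against wt lines (x axis, ± SE from edgeR) for the germline genes (rows) on each day (panels), with filled points for an unadjusted p under 0.05. The 4 filled points lie right of 0, beside 5.27% to 10.9% of all tested genes at that p per day, 0 of the 39 values passed adjustment, and Tex101 has no value at day 3.

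Among 12449 other genes, those whose log2 CPM over the 24 libraries (4 of each line) was most like the mean of the 10 germline genes were Mkrn1 (Pearson r 0.90), Sohlh2 (Pearson r 0.88), Gm45837 (Pearson r 0.87), Zcwpw1 (Pearson r 0.87) and Pde2a (Pearson r 0.87). Sohlh2 is a transcription factor of early germ cells and Zcwpw1 a reader of histone marks in meiosis, while Gm45837 and Pde2a overlap on the same strand. Exons of Zcwpw1 overlap those of Pilra, and exons of Mkrn1 those of Gm10244, on the other strand. In wt Sohlh2 went from 28.5 ± 5.88 CPM at day 0 to 11.3 ± 1.52 at day 3, and in het from 29.5 ± 2.86 to 12.5 ± 3.20 (SD, n = 3). Mkrn1, a ubiquitin ligase, went from 873 ± 24.4 to 386 ± 63.6 CPM in wt and from 858 ± 34.9 to 421 ± 135 in het.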

How the data were processed

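Poly(A) RNA of 24 mESC libraries was sequenced as 75-base single-end reads. The authors trimmed reads with Trim Galore 0.4.4, aligned them with HISAT2 2.0.5 to GRCm38.p6 and counted reads per gene in SeqMonk, and the deposited table gives raw counts. How reads of overlapping genes were assigned is not given in the sources used here. Deposited tables of log2 RPKM values and 8 columns of group means were not used.

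The count table was tested with edgeR 4.0.16 under R 4.3.3 (TMM, filterByExpr, quasi-likelihood test on the groups compared, Benjamini-Hochberg adjustment, threshold 0.05), with DESeq2 1.42.0 as an alternative. CPM values were scaled with TMM factors. A limit of 3 counts corresponds to 0.422 CPM at the lowest depth and 0.144 at the highest, for counting error only. Exon lengths, overlaps and shared 75-base stretches came from GENCODE vM21, which held 35545 of the identifiers, 99.5% at the same coordinates. Promoter windows came from RefSeq. Scripts were tested on simulated data. Figures used matplotlib 3.10.9.

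The 10 genes and all lists were chosen with earlier results of these data known. The genes eligible to be named were the 10, Smchd1, up to 4 genes of each list with the smallest adjusted p, a set of Dnmt, Tet and Polycomb genes, and the 5 genes most like the mean profile. Chpt1, Nanos2, Afp and genes that overlap named genes were named after their values were seen. Same-numbered libraries of one genotype are paired because the labels give them as one line, and correlations of their deviations from group means were -0.07 to 0.29. Wt and het lines of the same number are different lines. Per the study's methods, blastocysts were plated singly to derive lines, so p-values between genotypes measure the spread between lines. Tests between days held no term for the line, so their p-values ignore the pairing of days unless the line is given as a block.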

Additional observations from a re-analysis of the deposited data

How the results depend on the processing

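Alternatives were other scalings (DESeq2 size factors or total counts), other filters (only genes without any count removed, or those averaging under 10), the DESeq2 Wald test, the line as a replicate block, a joint fit of the 24 libraries and fits that left out one line. Counting each gene and comparison once per alternative, 0 of 561 values of the 10 genes whose reported unadjusted p was under 0.05 changed sign, and of 1118 whose p was larger, 90 changed sign and 6 became called. With the loosest filter, 2 of the 10 were called in het against wt at day 2 instead of 0, in a fit that called 1.77% of all genes. The calls that this filter added between days included Hormad1 in wt from day 2.5 to day 3 (adjusted p = 0.0198) and in het from day 0 to day 2 (adjusted p = 0.0296). In a joint fit of all libraries, 3 were called in het from day 0 to day 2 instead of 6, without Dazl, Ddx4 and Sycp1 (adjusted p = 0.0694, 0.17 and 0.233), and 46.9% of all genes were called instead of 56.1%. The joint fit also ended the calls of Dazl and Hormad1 in wt from day 0 to day 2 (adjusted p = 0.0653 and 0.199), of Mael in wt and Ddx4 in het from day 2 to day 2.5 (adjusted p = 0.0814 and 0.151) and of Sycp3 in het from day 2.5 to day 3 (adjusted p = 0.0548). It added calls of Sycp1 in wt from day 0 to day 2 (adjusted p = 0.035) and of Ddx4 in het from day 2.5 to day 3 (adjusted p = 0.0162). The causes were not tested. Leaving out one line called 2 to 5 (all lines, 4) of the 10 in wt and 3 to 5 (all lines, 6) in het from day 0 to day 2, and 1 to 5 (all lines, 5) in wt and 2 to 8 (all lines, 6) in het from day 2.5 to day 3. Over all genes these fits called 26.3 to 40.4% in wt and 44.5 to 49.9% in het in the first step and 0.186 to 20.1% in wt and 14.9 to 19% in het in the last. The replicate block, which pairs the days of a line, changed the calls given above for Sycp1, Ddx4 and Hormad1 and no other call of the 10. Between genotypes, where equal numbers are different lines, the block called 0 of the 10. Scaling by total counts ended the calls of Dazl in het (adjusted p = 0.0505) and Hormad1 in wt (adjusted p = 0.0546) from day 0 to day 2 and of Ddx4 in het from day 2 to day 2.5 (adjusted p = 0.0593). The removal of Chpt1 counts from Sycp3 was chosen after seeing the data. Low counts limit Tex101 and Asz1, with at most 40 and 45 counts per library.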
